A study of Homo sapiens with 9 samples.

Results

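Corin was compared with vehicle in the established human melanoma line WM983B on 6 of the 9 arrays of the series. The comparison asked which transcripts changed under the dual inhibitor after 24 h, and it covered the 14884 genes with a symbol in the probe table used here. Histones, proteasome subunits, amino acid carriers and the group of collagens, laminins and integrins had 0 or 1 named gene each and were not analysed here as families. The 3 corin arrays (labelled corin2, taken here to be the compound that the study calls corin) came from cells given 2.5 µM corin, and the 3 vehicle arrays from cells given a matching amount of DMSO. The other 3 arrays, from cells given 2.5 µM MS-275, entered the shared estimate of the spread and a direct comparison with corin. All cells were grown in DMEM with serum, both inhibitors were added from DMSO stocks, and no group carried a genetic change. The labels describe the arrays of a group as biological triplicates, and the study calls its array data representative of 3 independent experiments. Neither says how the cultures behind each array were separated, so each p-value covers only how far these arrays spread. A 1-line experiment says nothing of other melanomas.

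Corin joins a benzamide of the kind found in MS-275 (entinostat), which binds the zinc of class I histone deacetylases, to a warhead directed at the amine oxidase LSD1. LSD1, the product of KDM1A, removes methyl groups from histone H3, and HDAC1 and HDAC2 remove acetyl groups from histone tails. The scaffold protein CoREST (RCOR1) holds them together in a complex that keeps many genes silent. Inhibitors of class I deacetylases are known to raise acetylation, to slow the cell cycle and to switch on genes that are silent in the cell of origin, while other genes fall.

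The values are log2 signals after RMA, a method that corrects the background of an array, scales the arrays to each other and sums the probes of a transcript. A difference of 1 is thus a 2-fold difference, and every change is set against the rest of the array. Medians over all probes of an array lay between 4.05 and 4.12. Pearson's r across the 14884 named genes was 0.994 between vehicle arrays and 0.989 to 0.991 between corin arrays. Between a vehicle and a corin array it was 0.902 to 0.904. The median SD of a gene was 0.104 with vehicle and 0.135 with corin. Melanocyte lineage markers averaged 8.83 to 8.89 on the vehicle arrays, and all 9 of those measured lay above the median gene. Keratinocyte markers averaged 3.86 to 3.96 there, and none of 8 reached the median gene.

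A call required at least a 2-fold change and p under 0.05 in limma over all 9 arrays, after Benjamini-Hochberg adjustment over the 14884 genes. With corin, 1081 genes were higher than with vehicle (7.26% of those tested) and 1133 were lower (7.61%). The other 12670, or 85.1%, were not called. Every gene with a fold of at least 2 also had an adjusted p under 0.05. Without the fold, 3477 genes were higher (23.4%) and 3989 lower (26.8%) at the same adjusted p from limma. The 3 corin values lay all above or all below the 3 vehicle values for 8225 genes, which is 55.3% of those tested, and did so for all 2214 called genes. At least 4-fold changes were seen for 258 higher and 241 lower genes, and at least 16-fold changes for 25 and 12. Past 32-fold there were 7 higher genes and 0 lower ones. Among the 7 were LCE1F and CD24, whose vehicle signals were so low that their folds are uncertain.

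Promoter sequences are shown for 6 members of gene families that moved, with the motif that is known from textbooks for that family in capitals. Each stretch holds the 150 bases before the RefSeq start of the gene, read 5′ to 3′ along the gene, from build GRCh38.p14.
PLK1, chr16:23678739-23678888, plus strand: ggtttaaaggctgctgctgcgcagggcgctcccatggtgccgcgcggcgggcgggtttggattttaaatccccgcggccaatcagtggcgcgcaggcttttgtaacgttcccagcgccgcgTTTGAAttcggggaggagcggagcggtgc
CDC20, chr1:43358831-43358980, plus strand: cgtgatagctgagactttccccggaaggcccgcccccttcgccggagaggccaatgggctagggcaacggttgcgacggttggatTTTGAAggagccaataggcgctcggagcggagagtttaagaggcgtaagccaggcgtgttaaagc
MT1X, chr16:56682320-56682469, plus strand: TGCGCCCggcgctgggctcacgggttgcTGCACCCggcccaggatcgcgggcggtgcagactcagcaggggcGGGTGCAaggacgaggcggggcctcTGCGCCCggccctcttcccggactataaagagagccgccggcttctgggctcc
ASNS, chr7:97872409-97872558, minus strand: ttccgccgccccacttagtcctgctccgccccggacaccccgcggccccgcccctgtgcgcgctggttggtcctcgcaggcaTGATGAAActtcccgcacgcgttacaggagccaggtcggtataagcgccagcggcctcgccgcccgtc
TYR, chr11:89177725-89177874, plus strand: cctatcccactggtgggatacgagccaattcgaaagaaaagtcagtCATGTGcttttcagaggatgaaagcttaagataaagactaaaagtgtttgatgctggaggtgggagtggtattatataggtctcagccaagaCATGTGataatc
TYRP1, chr9:12693235-12693384, plus strand: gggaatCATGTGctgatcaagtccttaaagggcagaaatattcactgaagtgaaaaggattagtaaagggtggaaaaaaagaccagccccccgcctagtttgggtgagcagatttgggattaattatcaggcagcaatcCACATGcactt
In PLK1 and CDC20, mitotic genes that fell, the capitals mark TTTGAA, a form of the cell cycle homology region, a repressive element of late cell cycle genes. In MT1X, a metallothionein that rose, they mark 4 cores of the metal response element, TGCGCNC or TGCACNC on either strand. In ASNS, asparagine synthetase, which rose, they mark TGATGNAA, the composite element of the amino acid response. In TYR and TYRP1, pigment enzymes that fell, they mark CATGTG on either strand, the core of the M-box to which the melanocyte regulator MITF binds. A match of letters is a description and not a site in use.

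**Figure D1:**
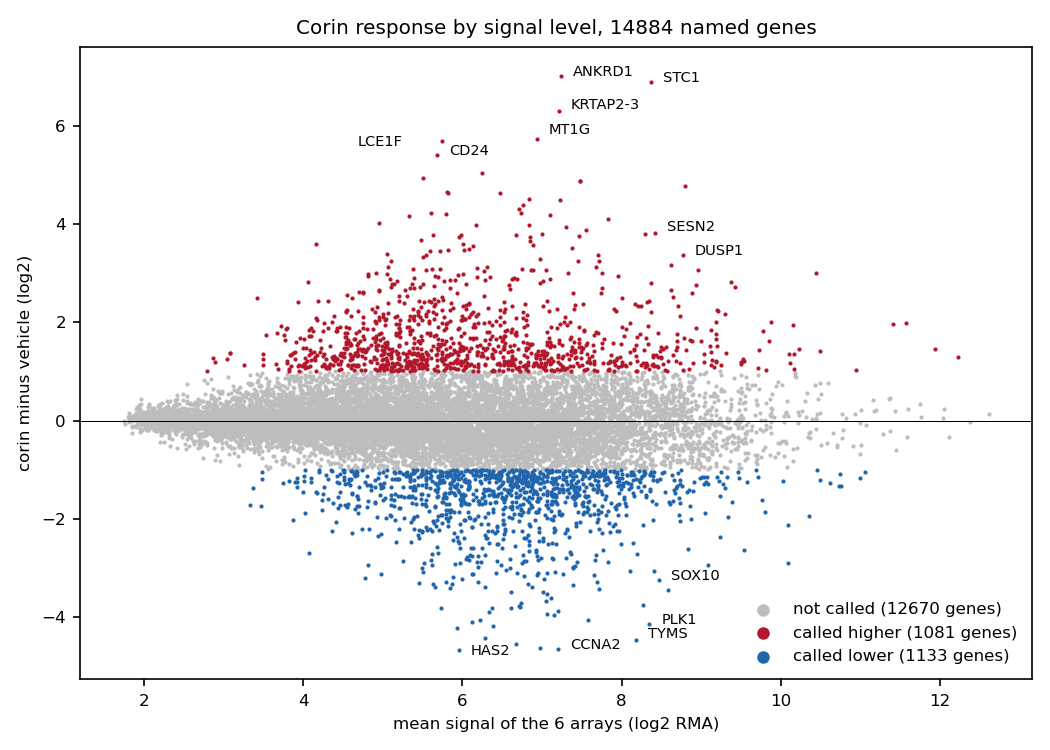
Log2 difference between the mean of the 3 corin and the mean of the 3 vehicle arrays (vertical axis) against the mean log2 signal of these 6 arrays (horizontal axis), 1 point per named gene. Red points are the 1081 genes called higher, blue points the 1133 called lower and grey points the 12670 not called. The red cloud reaches 7.02 at ANKRD1 and the blue one -4.68 at HAS2.

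Genes called higher and genes called lower started at different levels. The vehicle value is part of the change by which they were grouped, so some of this difference is built in. By definition the median gene divides all named genes evenly. Genes that rose had a median vehicle signal of 5.01 and a median corin signal of 6.85, and 609 of the 1081 (56.3%) started below the median gene of the vehicle arrays. With corin, 125 of them (11.6%) were still below the median gene. Genes that fell started at a median of 7.44 and ended at 5.74, and only 58 of the 1133 (5.1%) started below the median gene. By these medians, 484 of the genes that rose moved from below the median gene to it or above it, and 363 of those that fell moved from it or above it to below it. A gene near the floor of the array cannot fall much, and the part of that limit in these shares was not tested.

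Over the mean signal of the 6 arrays, calls in both directions were rare at the low end. Under a log2 signal of 3, 3 of 1235 genes were higher and 0 were lower. From 3 to 4 the shares were 1.5% and 0.5% of 2407 genes, and from 4 to 5 they were 6.8% and 3.2% of 2837. Higher genes were the larger share up to 6 (12.1% against 9.3% between 5 and 6). From 6 to 7 the order turned, with 8.9% higher and 15% lower of 2503 genes, and from 7 to 8 it was 8.5% against 14% of 1927. Between 8 and 10 the shares were close to each other, at 9.9% and 10.7% and then 11.3% and 9.2%. The ranges from 10 to 11 and from 11 up held only 74 and 25 genes. The median SD of a gene with corin fell from 0.171 between 4 and 5 to 0.054 between 10 and 11, so over this range brighter genes spread less. Under 3 it was 0.137, so it did not fall evenly with signal. The share of genes with an adjusted p under 0.05 from limma at any fold was 8.9% under 3 and 71.4% between 6 and 7.

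**Figure D2:**
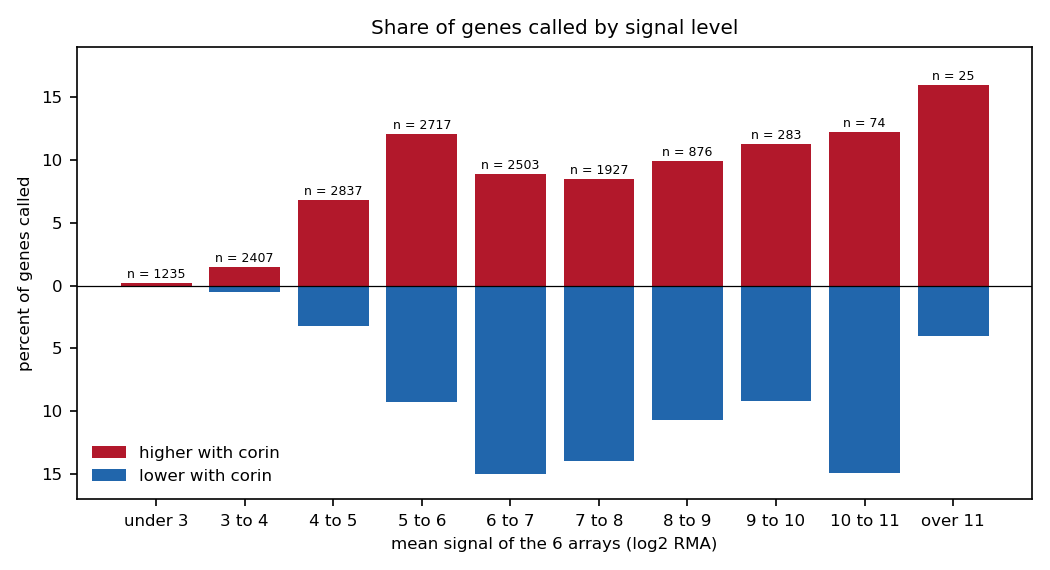
Percent of named genes called higher (red, upward) or lower (blue, downward) with corin than with vehicle, by the mean log2 signal of the 6 arrays, with the number of genes over each bar. Lower calls outnumber higher ones between 6 and 8 (15% and 14% lower), and under 4 few genes were called either way.

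Kinesin, spindle and kinetochore genes, which build the mitotic apparatus, had the largest share called among families of at least 10 measured members. Of 79 measured, 72 fell and 0 rose, with a median log2 change of -2.67 beside -0.037 for all named genes. PLK1, the kinase that drives entry into and exit from mitosis, read 10.41, 10.41 and 10.43 with vehicle and 6.10, 6.36 and 6.37 with corin (a log2 change of -4.14, standard error 0.089, adjusted p = 3.6e-11 from limma). The vehicle values were almost the same on the 3 arrays, and no corin value came near them. KIF20A, a kinesin needed for cytokinesis, read 8.48, 8.49 and 8.51 with vehicle and 4.33, 3.73 and 4.16 with corin, and its log2 change was -4.42 (95% interval -4.72 to -4.13). NDC80, the kinetochore subunit that holds microtubules, read 8.0, 8.11 and 8.0 with vehicle and 3.88, 3.97 and 3.58 with corin. CDC20, the activator of the anaphase-promoting complex, fell 8.4-fold. These dividing-cell genes were among the brighter ones in vehicle cells, at a median of 8.12, and their median with corin was 5.19, near the median gene. In bulk RNA, fewer cycling cells and less of these transcripts per cell cannot be told apart. The 7 members not called were BUB3, CENPT, CENPV, CKAP2, CKAP5, KIF4B and MASTL, of which CENPV had the highest log2 change (0.63) and MASTL the lowest (-0.99). MASTL was called without corin replicate 1 (-1.01), corin replicate 2 (-1.10) or vehicle replicate 3 (-1.03) and with centred arrays (-1.03), and CKAP2 (-0.95) without corin replicate 2 (-1.09).

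Replication genes followed closely. Among 36 measured genes of the replication fork and of nucleotide synthesis, 27 fell and 0 rose, with a median of -2.16. TYMS, thymidylate synthase, read 10.42, 10.44 and 10.40 with vehicle and 6.08, 5.84 and 5.93 with corin (a log2 change of -4.47, standard error 0.083, adjusted p = 1.9e-11 from limma), a 22.2-fold difference. GINS2, a subunit of the replicative helicase, had the widest corin values of these, with 7.62, 7.64 and 7.66 with vehicle and 3.79, 4.22 and 3.47 with corin. MCM5, which belongs to the helicase ring, fell 8.82-fold, and MCM2, MCM3, MCM4, MCM6, MCM7 and MCM8 were also called, with log2 changes from -2.84 to -1.96. RRM2, a subunit of ribonucleotide reductase, changed by -2.28. PCNA, the sliding clamp of the replication fork, was not called, with 10.13, 10.04 and 10.04 with vehicle and 9.65, 9.47 and 9.45 with corin and a log2 change of -0.54, so the family did not move as a block.

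Of 42 measured cyclins, cyclin-dependent kinases, their inhibitors and E2F-related factors, 21 fell and 1 rose. Of the inhibitors the list holds CDKN2A, with a log2 change of -0.65 and no call, and the others were not analysed here. CCNA2, the cyclin of S phase and mitosis, had the largest fall of the family, with 9.51, 9.57 and 9.53 with vehicle and 5.03, 4.78 and 4.80 with corin (a log2 change of -4.66, standard error 0.088, adjusted p = 1.9e-11 from limma). MYBL2 and FOXM1, transcription factors of late cell cycle genes, fell 16.7-fold and 8.69-fold. CDK1, the mitotic kinase, read 7.87, 7.77 and 7.91 with vehicle and 4.61, 4.64 and 4.42 with corin. CDC25A, the phosphatase that activates these kinases, changed by -3.39 and E2F1, a driver of S phase genes, by -2.06. CDK4, the partner of D cyclins, read 9.36, 9.46 and 9.42 with vehicle and 7.38, 7.36 and 7.40 with corin, a fall in a gene that was bright in vehicle cells. The 1 member that rose was CCND2, a D cyclin, from a dim 4.04, 3.77 and 3.61 with vehicle and 4.79, 5.08 and 4.98 with corin (log2 change 1.14). With the mean of all probes of the gene in place of the brightest probe it was not called (log2 change 0.58). CCND1, the main D cyclin of melanoma, changed by -0.03 (95% interval -0.19 to 0.14).

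DNA repair genes gave 21 lower and 0 higher of 41, with a median of -1.02. BRIP1, a helicase that works with BRCA1, read 8.22, 8.27 and 8.25 with vehicle and 4.87, 5.27 and 5.26 with corin. EXO1, an exonuclease of mismatch repair, fell 8-fold, UNG, which removes uracil from DNA, 6.67-fold, and CHEK1, the checkpoint kinase of stalled forks, 4.61-fold. Many of these genes are known to be made mainly in dividing cells. The median of 13 housekeeping genes was -0.45, with 0 higher and 1 lower (IPO8), or 2 lower without vehicle replicate 3.

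Promoter letters were counted over 250 bases before and 50 after the start, both strands, for the 10749 named genes with a RefSeq promoter here. TTTGAA or TTCGAA stood in 45 of the 65 mitosis family promoters (69.2%) and in 13.2% of all 10749. Among the family members that fell, 42 of 59 held it. CCAAT, which often lies near this element, also stood in 45 of the 65, against 36% of all promoters. TTTCCCGC or TTTGGCGC, forms of the E2F site, stood in 13 of 31 replication promoters (41.9%) and in 3.1% of all, and 12 of the 24 members that fell and had a promoter held it. GINS2, TYMS and MCM7 were among them, and PCNA held it without being called.

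**Figure D3:**
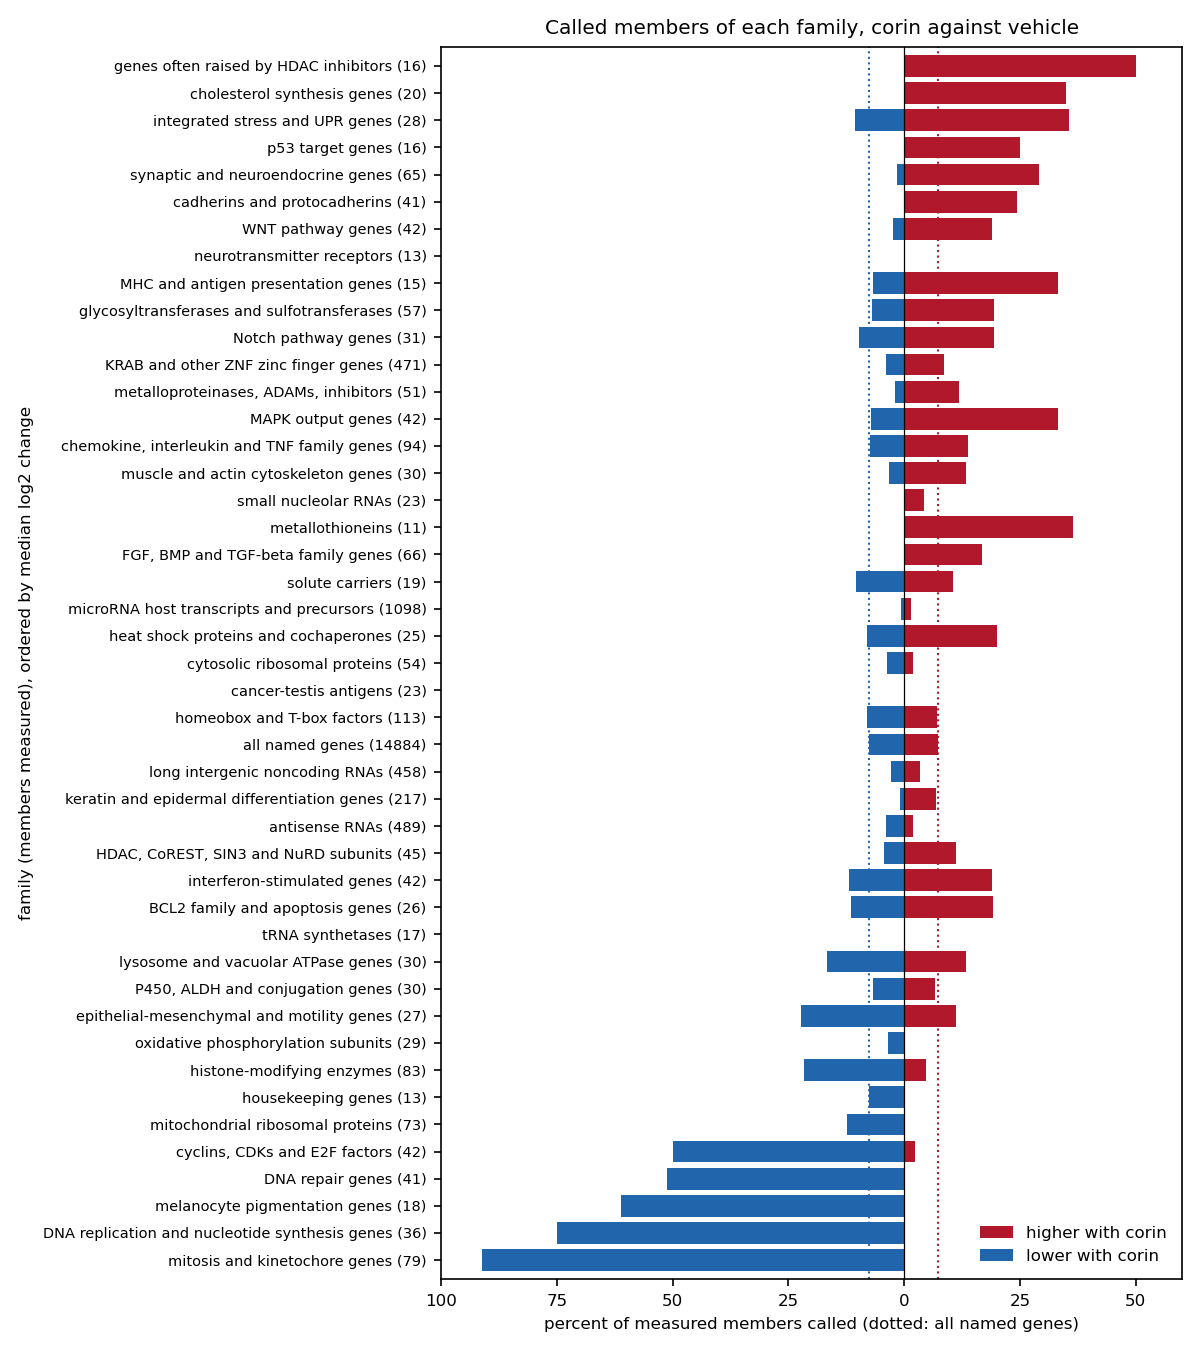
Percent of the measured members of each family with at least 10 members called higher (red, right) or lower (blue, left) with corin than with vehicle, ordered by the median log2 change, with the number measured in brackets. Dotted lines mark all named genes, at 7.26% higher and 7.61% lower. Mitosis, replication, pigmentation, DNA repair and cyclin genes reach 50% or more lower, and the highest share of rises is 50%.

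Enzymes that write or erase histone and DNA methylation or acetylation fell more often than they rose, with 18 lower (21.7%) and 4 higher (4.8%) of 83. SUV39H1, which methylates histone H3 in heterochromatin, read 7.30, 7.30 and 7.02 with vehicle and 4.70, 4.72 and 4.73 with corin (a log2 change of -2.49, standard error 0.091, adjusted p = 1.2e-09 from limma). UHRF1 and DNMT1, which copy DNA methylation after replication, fell 3.32-fold and 2.32-fold. KAT2B, the acetyltransferase PCAF, fell 4.69-fold. KDM4D, a histone demethylase, changed by -2.06. In the other direction KDM7A, also a histone demethylase, rose 3.93-fold, and KDM1B, the closest relative of LSD1, read 7.83, 7.92 and 7.92 with vehicle and 9.53, 9.56 and 9.44 with corin. These transcripts say nothing of enzyme activity.

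The transcripts of the enzymes that corin is directed at were mostly level. KDM1A read 9.23, 9.26 and 9.20 with vehicle and 9.22, 9.24 and 9.02 with corin, with a log2 change of -0.07 (95% interval -0.26 to 0.12). HDAC1 changed by -0.08 (-0.28 to 0.12) and HDAC2 by 0.04 (-0.19 to 0.27), and for both genes the corin and vehicle values overlapped. A 2-fold change of any of these 3 genes lies outside its interval. HDAC3, the deacetylase of the NCoR complex, was called, with 6.71, 6.58 and 6.67 with vehicle and 7.91, 7.78 and 7.73 with corin (a log2 change of 1.15, standard error 0.089, adjusted p = 5.5e-07 from limma). RCOR1 changed by 0.53 and was not called, while RCOR2, its paralog, rose 2.61-fold from a dim vehicle signal. HDAC5, a class IIa deacetylase, rose 2.54-fold. Over the 45 subunits of the HDAC, CoREST, SIN3 and NuRD complexes and their recruiting factors, 5 rose (11.1%) and 2 fell (4.4%). SNAI1, a repressor that recruits LSD1, had the largest rise, with 6.96, 6.84 and 7.11 with vehicle and 9.84, 9.76 and 9.69 with corin. CHD3, a remodeller of NuRD, fell 3.41-fold, and HMG20B, a CoREST subunit, 2.13-fold. SIN3A changed by -0.19.

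Pigment cell genes fell together. Of 18 measured, 11 fell and 0 rose, with a median of -1.20. SOX10, the transcription factor that keeps neural crest and melanocyte identity, read 10.04, 10.06 and 10.16 with vehicle and 7.05, 6.76 and 6.72 with corin (a log2 change of -3.24, standard error 0.097, adjusted p = 2.7e-10 from limma). MLANA, the melanosome antigen MART-1, read 8.74, 8.66 and 8.70 with vehicle and 5.36, 5.77 and 5.71 with corin. TYR, tyrosinase, which makes the first step of melanin synthesis, read 8.22, 8.25 and 8.16 with vehicle and 5.92, 5.77 and 5.75 with corin, and its standard error of 0.187 also takes in the MS-275 arrays. TYRP1, a related melanin enzyme, had values of 7.98, 8.0 and 7.95 with vehicle and 5.61, 5.64 and 5.51 with corin. MITF, the master regulator of this programme, sat just past the 2-fold line, at 8.21, 8.17 and 7.89 with vehicle and 7.07, 7.10 and 6.96 with corin and a log2 change of -1.04 (95% interval -1.27 to -0.81). Vehicle array 3 was its lowest vehicle value, and MITF was not called without vehicle replicate 1 (-0.98) or after quantile normalization (-0.97). PMEL, the fibril protein of melanosomes, changed by -0.82 and S100B, a calcium-binding marker of the lineage, by -0.94, and neither was called. The averages of the melanocyte lineage markers were 8.83 to 8.89 with vehicle and 7.04 to 7.13 with corin, and all 9 measured markers stayed at or above the median gene with corin.

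CATGTG stood in 7 of the 13 pigmentation promoters found (53.8%) and in 8.3% of all 10749. Of the 9 members that fell and had a promoter, 5 held it: TYR, TYRP1, OCA2, EDNRB and GPR143. GPNMB and MC1R held it too and were not called, with log2 changes of -0.30 and -0.10.

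Markers of other cell types were measured in the same way. Keratinocyte markers averaged 4.25 to 4.27 with corin, with 1 of 8 higher (EPCAM, an epithelial adhesion molecule, 2.40). Endothelial markers averaged 4.19 to 4.32 with vehicle and 4.58 to 4.76 with corin, with 1 of 8 higher (KDR, a VEGF receptor, 2.34). Immune markers averaged 5.88 to 5.98 and 6.37 to 6.44, with 1 of 5 higher (CSF1R, the receptor of macrophage growth factor, 2.40). Of these 5, only CD68 (11.47) reached the median gene with vehicle, and it lifted the average. None of the 3 fibroblast markers was called. They averaged 5.9 to 6.09 with vehicle and 6.04 to 6.23 with corin, and 2 of the 3 reached the median gene with vehicle (LUM at 9.08). In each list the other members were not called. EPCAM, KDR and CSF1R rose more than any other member of their lists and so lifted the corin averages. EPCAM is an epithelial gene and not one particular to keratinocytes.

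**Figure D4:**
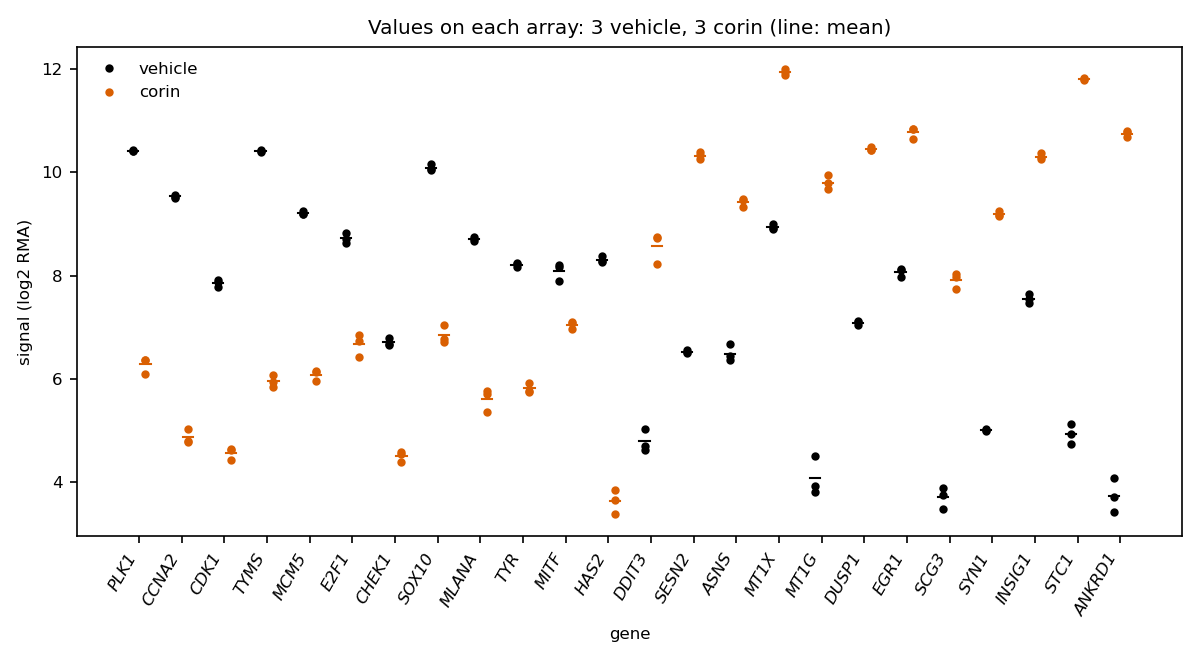
Log2 signal of 24 genes on each of the 3 vehicle arrays (black) and 3 corin arrays (orange), with a line at each mean. In every gene shown the groups do not overlap, and the gap between them is wider than the spread within either. The genes were picked from the 2214 called ones, none of which has overlapping groups. Of all named genes, 55.3% have groups that do not overlap.

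The amino acid and unfolded protein response was raised in part. The amino acid part of this programme, run by the factor ATF4, makes amino acids and stops growth under stress. The list also holds sensors and chaperones of the endoplasmic reticulum. Of 28 measured genes, 10 rose (35.7%) and 3 fell (10.7%), with a median of 0.44. SESN2, which restrains mTOR when amino acids are short, read 6.51, 6.49 and 6.55 with vehicle and 10.25, 10.39 and 10.34 with corin (a log2 change of 3.81, standard error 0.076, adjusted p = 2.1e-11 from limma). DDIT3, the stress factor CHOP, rose 13.8-fold, with 4.62, 5.03 and 4.70 with vehicle and 8.73, 8.75 and 8.22 with corin, and corin array 3 was the lowest of its corin values. ASNS, asparagine synthetase, read 6.36, 6.67 and 6.43 with vehicle and 9.33, 9.48 and 9.47 with corin, and ATF3, a stress-induced transcription factor, rose 7.47-fold. ERN1, the IRE1 sensor of the endoplasmic reticulum, and DDIT4, an inhibitor of mTOR, rose 4.87-fold and 3.4-fold. ATF4 itself read 8.70, 8.68 and 8.71 with vehicle and 9.48, 9.48 and 9.47 with corin and was not called (log2 change 0.78), and TRIB3, a target of CHOP, changed by 0.94. Without corin replicate 3 or vehicle replicate 2 the change of TRIB3 was 1.11 or 1.0, and it was called. ATF5, a relative of ATF4, fell 4.13-fold, and SHMT2, the mitochondrial serine enzyme, 2.79-fold. Chaperone genes of the endoplasmic reticulum were not called, among them CALR (0.19), CRELD2 (0.06), HYOU1 (0.49) and MANF (0.39). Of 17 tRNA synthetases, which load amino acids onto tRNA and include ATF4 targets, 0 were called either way. AARS1 at 0.91 and CARS1 at 0.89 had the largest changes, and AARS1 was called after quantile normalization (1.02). TGATGNAA stood in 3 of 26 promoters of this family and in 2.2% of all promoters, and of the 10 members that rose, ASNS and ATF3 held it.

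Metallothioneins, small proteins that bind zinc and copper, were split. Of 11 measured, 4 rose and 0 fell, and the median was 0.02. MT1G read 4.51, 3.92 and 3.81 with vehicle and 9.79, 9.94 and 9.68 with corin (a log2 change of 5.73, standard error 0.187, adjusted p = 5e-10 from limma), a 52.9-fold difference from a vehicle level below the median gene. MT1X was bright already and read 8.92, 8.99 and 8.90 with vehicle and 11.89, 12 and 11.94 with corin, an 8.05-fold difference. MT3 rose 4.31-fold and MT1E 3.47-fold. MT2A, the main human metallothionein, read 8.38, 8.78 and 8.58 with vehicle and 8.44, 8.69 and 8.67 with corin, with overlapping groups and a log2 change of 0.02. TGCGCNC or TGCACNC stood in all 5 metallothionein promoters found, those of MT1B, MT1H, MT1X, MT2A and MT4, and in 35.2% of all promoters, so the genes that did not move held it as well as MT1X. Metallothionein genes are close copies of each other, and the array may in part read a relative.

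Among 25 heat shock proteins and cochaperones, 5 rose and 2 fell. HSPA1A and HSPA1B, which encode nearly the same inducible HSP70, were among the brightest genes that rose. HSPA1A read 11.55, 11.61 and 11.58 with vehicle and 12.92, 12.84 and 12.88 with corin, and HSPA1B rose 2.75-fold. As near copies they are not separate evidence. HSPA2, a testis and brain form, rose 3.05-fold. HSPB1, the small heat shock protein HSP27, sat at the line with a log2 change of -1.01. It was not called in the fit without vehicle replicate 1, corin replicate 1 or corin replicate 3 (-0.99, -1.0 and -0.94) or after quantile normalization (-0.98). HSPA14, a ribosome-bound member, changed by -1.16 and was not called without corin replicate 3 (-0.93). Without corin replicate 3, 0 members of the family fell, and 1 fell without corin replicate 1 or vehicle replicate 1 or after quantile normalization.

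Of 42 genes downstream of growth factor signalling through MAP kinases, 14 rose (33.3%) and 3 fell (7.1%). The shares of all named genes were 7.26% and 7.61%, so the share that fell was near that of all genes. DUSP1, a nuclear phosphatase of MAP kinases, read 7.10, 7.11 and 7.04 with vehicle and 10.43, 10.43 and 10.50 with corin (a log2 change of 3.37, standard error 0.075, adjusted p = 4.5e-11 from limma). EGR1, a zinc finger factor, rose 6.54-fold, with 7.97, 8.13 and 8.10 with vehicle and 10.84, 10.84 and 10.65 with corin. JUN, JUNB and FOSB, subunits of AP-1, rose 6.34-fold, 4.7-fold and 6.43-fold, and FOS 3.89-fold. MYC, the growth regulator, fell, with 8.40, 8.40 and 8.41 with vehicle and 7.10, 7.05 and 6.89 with corin. ETV4, an ETS factor of the BRAF pathway, fell 4.44-fold and FOSL1 2.45-fold. DUSP6 and SPRY2, feedback inhibitors of ERK, changed by 0.24 and -0.92 and were not called. With 25 members not called, the family median was 0.03.

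Secretory and synaptic genes, many of them known from neurons and endocrine cells, gave 19 higher and 1 lower of 65, with a median of 0.36. Of the 65, 31 lay below the median gene. The vehicle median of the family was 5.01, beside 5.27 for all named genes. SCG3, a granin-binding protein of secretory granules, read 3.48, 3.88 and 3.74 with vehicle and 7.97, 8.02 and 7.74 with corin (a log2 change of 4.21, standard error 0.118, adjusted p = 1.8e-10 from limma). SYN1, synapsin 1 of synaptic vesicles, read 4.99, 5.03 and 5.01 with vehicle and 9.18, 9.25 and 9.15 with corin, an 18.1-fold rise. VGF and SCG2, precursors of neuropeptides, rose 6.99-fold and 6.46-fold, and CHGA, chromogranin A, 5.32-fold. SYT4, a synaptotagmin, rose 7.7-fold, with 3.18, 3.44 and 3.43 with vehicle and 6.36, 6.47 and 6.05 with corin. Only VAMP8, which serves fusion in secretory cells and lysosomes, fell (-1.50). VAMP7, a related vesicle protein, changed by 0.13. Of 13 neurotransmitter receptors, 0 were called in either direction, and their vehicle median was 4.65.

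Cell surface adhesion genes followed the same sign. Of 41 cadherins and protocadherins, 10 rose and 0 fell, although 29 of the 41 lay below the median gene. PCDH19, a protocadherin of the nervous system, read 4.08, 3.98 and 3.87 with vehicle and 6.92, 6.83 and 6.53 with corin, and PCDH17 rose 6.06-fold from a moderate signal. DSG2 and DSC2, desmosomal cadherins of epithelia, rose 2.71-fold and 2.11-fold. Keratins, keratin-associated and other epidermal genes gave 15 higher and 2 lower of 217, which is 6.9% and 0.9%. The share that rose was near the 7.26% of all named genes, but 186 of the 217 lay below the median gene. The vehicle median of the family was 3.91, and of all genes with a mean signal between 3 and 4, 1.5% rose and 0.5% fell. The difference from such dim genes was not tested. A few of the keratin and epidermal genes were among the largest changes of all. KRTAP2-3, a keratin-associated protein of hair, read 3.95, 4.01 and 4.22 with vehicle and 10.37, 10.38 and 10.34 with corin (a log2 change of 6.30, standard error 0.117, adjusted p = 1.9e-11 from limma). LCE1F, a protein of the cornified envelope, read 2.72, 2.86 and 3.11 with vehicle and 8.58, 8.64 and 8.54 with corin, and FLG, filaggrin, rose 4.29-fold. Keratin-associated genes are near copies in clusters, so values of close members may share signal.

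**Figure D5:**
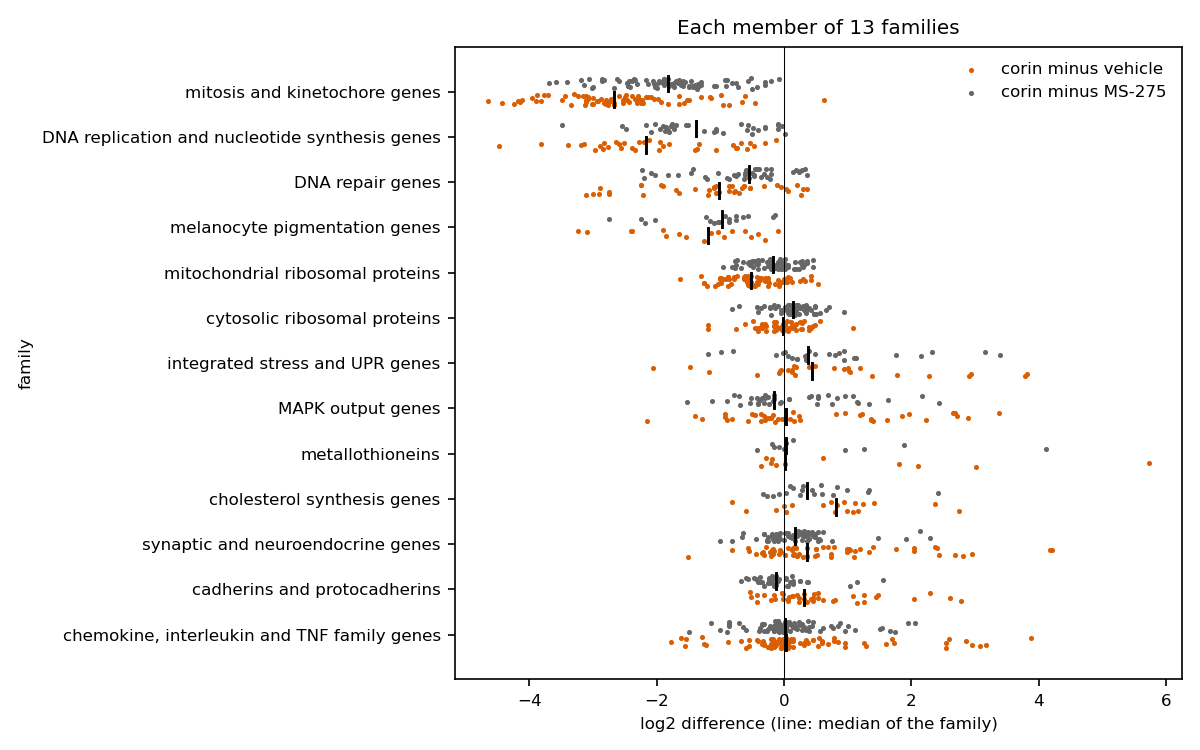
Log2 difference of each measured member of 13 families, corin minus vehicle in orange and corin minus MS-275 in grey, with a black line at each median. In the mitosis and replication families nearly all members lie left of 0 in both comparisons (medians -2.67 and -1.82, -2.16 and -1.39), and the metallothionein, stress response and neuroendocrine members that rose lie far from their family medians. The comparisons share the corin arrays.

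Signalling molecules that cells release gave more rises than falls. In the chemokine, interleukin and TNF families 13 rose (13.8%) and 7 fell (7.4%) of 94, of which 73 lay below the median gene. Of all named genes 7.26% rose and 7.61% fell, so the share that fell was near that of all genes. IL11, a cytokine of the IL-6 family, read 5.84, 5.36 and 5.62 with vehicle and 9.48, 9.41 and 9.56 with corin (a log2 change of 3.88, standard error 0.113, adjusted p = 2.2e-10 from limma). CXCL8, the neutrophil attractant interleukin-8, rose 9.01-fold, CXCL14 8.43-fold and CCL20 7.25-fold. CCL5 had values of 4.74, 4.58 and 4.60 with vehicle and 7.42, 7.33 and 6.93 with corin. On the falling side were LIF, a cytokine of stem cells (-1.55), CCL2, the monocyte attractant (-1.29), and the receptor IL7R (-1.54). Ligands and receptors of the FGF, BMP and TGF-beta families gave 11 higher (16.7%) and 0 lower of 66. Without corin replicate 2, or with arrays centred on their medians, 1 member was lower. BMP6 read 4.53, 4.65 and 4.36 with vehicle and 7.65, 7.57 and 7.30 with corin, and BMP2, also a bone morphogenetic protein, rose 7.63-fold. In the WNT pathway 8 rose and 1 fell of 42. FZD9, a WNT receptor, rose 4.46-fold, while LEF1, the nuclear factor of the pathway and a melanocyte gene, read 7.37, 7.06 and 7.06 with vehicle and 5.23, 5.33 and 4.91 with corin. In the Notch pathway 6 rose (19.4%) and 3 fell (9.7%) of 31. DLL4, a ligand, rose 4.64-fold, and HEY1, a target gene, fell 2.92-fold.

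Immune recognition genes were mixed. Interferon-stimulated genes gave 8 higher and 5 lower of 42. OASL and IFIT1 rose 4.91-fold and 2.9-fold, while GBP4 and IFIT3 fell 5.13-fold and 4.62-fold, so members of this list did not share a direction. IFIT3 read 5.82, 5.98 and 5.72 with vehicle and 4.19, 3.39 and 3.31 with corin, and its corin array 1 stood above the other corin arrays. Among 15 genes of antigen presentation and natural killer ligands, 5 rose (33.3%) and 1 fell (6.7%). ULBP1, a ligand of the killer cell receptor NKG2D, read 2.98, 2.95 and 3.19 with vehicle and 8.04, 8.04 and 7.86 with corin (a log2 change of 4.94, standard error 0.115, adjusted p = 6e-11 from limma), and the related MICB and ULBP3 rose 2.69-fold and 2.92-fold. CD274, the checkpoint ligand PD-L1, rose 5.09-fold. TAPBP, tapasin, which loads peptides on class I molecules, fell 3.47-fold. Without corin replicate 1 or vehicle replicate 3, or after quantile normalization, the list had 2 falls.

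Cholesterol synthesis genes had a family median of 0.82, with 7 higher and 0 lower of 20. INSIG1, the sterol sensor that holds back SREBP, read 7.65, 7.54 and 7.47 with vehicle and 10.37, 10.30 and 10.25 with corin (a log2 change of 2.75, standard error 0.083, adjusted p = 2.8e-10 from limma). STARD4, a carrier of cholesterol, rose 5.18-fold and HMGCS1, an early enzyme of the pathway, 2.66-fold. IDI1, SQLE, DHCR7 and TM7SF2, later enzymes, rose between 2.11-fold and 2.36-fold, and TM7SF2 was not called without vehicle replicate 2 (0.96). ACAT2 and FDPS, enzymes of the same route, changed the other way without being called (-0.82 and -0.60). SREBF1 and SREBF2, which encode the regulators, changed by 0.84 and 0.62.

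Among 26 apoptosis genes of the BCL2 family and their partners, 5 rose (19.2%) and 3 fell (11.5%). PMAIP1 (NOXA), BIK and BCL2L11 (BIM), which promote cell death, rose 3.78-fold, 3.13-fold and 2.93-fold. PMAIP1 read 7.35, 7.30 and 7.47 with vehicle and 9.27, 9.34 and 9.26 with corin. BCL2, which protects cells, read 7.88, 7.84 and 8.05 with vehicle and 6.29, 6.34 and 6.50 with corin, while the protective MCL1 and BCL2A1 rose 2.04-fold and 2.68-fold. MCL1 was not called without corin replicate 1 (0.93) or with centred arrays (0.99), and without vehicle replicate 2 the list had 5 falls. Of 16 targets of p53, 4 rose and 0 fell: SESN2, PMAIP1, PLK3 and TP53INP1, of which SESN2 and PMAIP1 also belong to lists above. Without vehicle replicate 2, 1 p53 target fell. SIK1, a kinase that restrains CREB, and MXD1, an antagonist of MYC, both among the genes that the study named for its arrays, rose 4.69-fold and 2.98-fold.

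Extracellular and matrix genes held some of the extremes. HAS2, which makes the matrix sugar hyaluronan, had the largest fall of all named genes, with 8.26, 8.38 and 8.28 with vehicle and 3.65, 3.84 and 3.38 with corin (a log2 change of -4.68, standard error 0.113, adjusted p = 7.2e-11 from limma). Over the 57 glycosyltransferases and sulfotransferases measured, 11 rose (19.3%) and 4 fell (7.0%). Of all named genes 7.26% rose and 7.61% fell, so the share that fell was near that of all genes. GALNT3, which starts mucin-type sugar chains, fell 8.7-fold, and HS3ST2, a heparan sulfate enzyme, rose 5.79-fold. Of 51 metalloproteinases, ADAMs and protease inhibitors, 6 rose (11.8%) and 1 fell (2.0%). TFPI2 and SLPI, secreted inhibitors of serine proteases, rose 27.3-fold and 24.7-fold, and SLPI read 4.29, 4.01 and 4.16 with vehicle and 8.82, 8.72 and 8.81 with corin. MMP14, the membrane-bound collagenase, fell, with 9.07, 9.11 and 9.09 with vehicle and 6.42, 6.42 and 6.53 with corin. In the list of epithelial to mesenchymal and motility genes 3 rose (11.1%) and 6 fell (22.2%) of 27. ZEB1 and SNAI1 rose (1.91 and 2.80), and ZEB2 and SNAI2, which normally mark melanocytes, fell (-1.71 and -1.22).

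Of 16 genes that deacetylase inhibitors are known to raise in many cell types, 8 rose (50%) and 0 fell, with a median of 1.14. The shares of all named genes were 7.26% and 7.61%. This list was drawn with earlier results of these data known, so its share is only a description. DHRS2, a mitochondrial reductase, read 4.23, 4.25 and 4.35 with vehicle and 7.81, 7.83 and 7.63 with corin, and CLU, the secreted chaperone clusterin, rose 12-fold. KLF6, TXNIP and GSN of the same list were not called (0.07, 0.09 and -0.54).

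The largest rises, leaving aside the repeat-array USP17L genes and unnamed or small RNA symbols, crossed these families. ANKRD1, a muscle ankyrin repeat protein and target of the YAP pathway, read 3.42, 3.70 and 4.07 with vehicle and 10.78, 10.80 and 10.68 with corin (a log2 change of 7.02, standard error 0.144, adjusted p = 2.7e-11 from limma), a 129.8-fold difference from vehicle values below the median gene. STC1, the secreted glycoprotein stanniocalcin-1, read 4.92, 4.73 and 5.13 with vehicle and 11.80, 11.81 and 11.83 with corin, a 118.3-fold difference. CD24, a surface sialoprotein, read 2.47, 3.40 and 3.06 with vehicle and 8.48, 8.36 and 8.29 with corin, and its vehicle values lie low on the array and far from each other. For CD24, LCE1F and ULBP1, mean vehicle signals were 2.98, 2.90 and 3.04, and so low a signal may not follow the amount of RNA. No fold is printed for them and their place in this order is not fixed. The log2 changes printed for ULBP1 carry the same limit. The fold of ANKRD1, with a vehicle value of 3.42, may be touched by this limit too. MYCT1, EPPK1, SSTR2, PARM1, CPA4 and CRISPLD2 completed the 15 largest with LCE1F, ULBP1, KRTAP2-3, MT1G, TFPI2 and SLPI. Apart from LCE1F and ULBP1, these had folds from 19.7 to 79. Among the 15 largest falls, leaving out the noncoding LINC02946 (-4.56) and chosen by the same rule, were HAS2 and GPX8, an endoplasmic peroxidase. The others, known from cell division and DNA replication, were CCNA2, PBK, TYMS, KIF20A, NDC80, SPAG5, PLK1, HMMR, MYBL2, CDCA8, TICRR, SGO1 and KIF11, at folds from 14.6 to 25.4.

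Other families are given beside the shares of all genes, 7.26% higher and 7.61% lower. Of 54 cytosolic ribosomal proteins, 1 rose and 2 fell, with a median of -0.01, and the 1 that rose, RPS15A, was not called without corin replicate 3 (0.97). Mitochondrial ribosomal proteins shifted a little downward, with 0 higher and 9 lower of 73 (12.3%) and a median of -0.52, and MRPL9 fell most (7.92, 8.09 and 7.94 with vehicle and 6.52, 6.48 and 6.07 with corin). Oxidative phosphorylation subunits gave 0 higher and 1 lower of 29 (COX8A). Zinc finger genes of the ZNF group gave 41 higher and 19 lower of 471, shares of 8.7% and 4.0%. ZNF280A, whose role is poorly known, rose 15.3-fold and ZNF689 fell 7.45-fold. Homeobox and T-box factors, the patterning genes of development, gave 8 higher and 9 lower of 113, near the share of all genes each way, with DLX3, a factor of skin and tooth, at the top (3.79, 4.43 and 4.0 with vehicle and 7.44, 7.68 and 7.55 with corin). Lysosomal genes gave 4 higher and 5 lower of 30 (13.3% and 16.7%), above the shares of all genes both ways. Muscle and actin genes gave 4 and 1 of 30 (13.3% and 3.3%). Cytochrome P450 and related genes gave 2 and 2 of 30 (6.7% each way), near the shares of all genes. The few solute carriers named here gave 2 and 2 of 19 (10.5% each way). Of the carriers 1 rose without corin replicate 1, corin replicate 2 or vehicle replicate 2 and with centred arrays. None of 23 cancer-testis antigens, all below the median gene, was called.

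Long noncoding RNAs and microRNA transcripts had lower signals than coding genes. Of 11916 protein-coding genes (median signal 5.76) 8.3% rose and 9.0% fell, and of 1398 long noncoding RNAs (median 3.90) 3.4% and 3.1%. The difference between these shares was not tested. LINC02946 was the noncoding gene with the largest fall, with 8.96, 8.94 and 8.97 with vehicle and 4.32, 4.63 and 4.24 with corin. AFAP1-AS1, an antisense RNA, rose 8.5-fold, but reads of a gene and its antisense partner were not examined apart here. Of 1098 microRNA precursors and host transcripts, 17 rose (1.5%) and 8 fell (0.7%). An array of this kind reads the precursor or host and not the mature microRNA. Of the 17, 5 belong to 1 cluster, MIR3689.

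The MIR3689 precursors lie side by side on chromosome 9, and their mature forms share seeds, so their probes can read each other. The RefSeq sequences are shown with bases 2 to 8, the seed, in capitals.
hsa-miR-3689a-5p: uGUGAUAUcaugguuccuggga
hsa-miR-3689b-5p: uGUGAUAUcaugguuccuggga
hsa-miR-3689e: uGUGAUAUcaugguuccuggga
hsa-miR-3689f: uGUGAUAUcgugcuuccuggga
hsa-miR-3689a-3p: cUGGGAGGugugauaucguggu
hsa-miR-3689d: gGGAGGUGugaucucacacucg
The a-5p, b-5p and e forms are the same sequence, and the f form has their seed. MIR3689E read 3.07, 3.64 and 3.04 with vehicle and 7.24, 7.59 and 7.42 with corin (a log2 change of 4.17, standard error 0.152, adjusted p = 1.1e-09 from limma). MIR3689B, MIR3689D2 and MIR3689A changed by 3.25, 3.08 and 3.01, and MIR3689F by 1.78. MIR3689D1 changed by 0.98 and missed the fold, although it holds the same mature form as MIR3689D2. It was called without corin replicate 1 or 2 or vehicle replicate 3 (1.03, 1.04 and 1.0) and after quantile normalization (1.02). The 6 transcripts are best read as 1 locus.

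SNAR RNAs, small noncoding RNAs that bind the protein NF90, rose as a set of near copies, with 6 higher and 0 lower of 8 and a median of 1.97. This list was added after its values were seen. SNAR-F read 5.72, 5.28 and 5.70 with vehicle and 8.33, 8.39 and 8.39 with corin. The 4 USP17L deubiquitinase genes measured, also near copies in a repeat array, all rose, by log2 changes of 2.77 to 4.87, and USP17L12 and USP17L9P have the same values on every array. Neither set counts as several genes.

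Tested directly against MS-275 at the same dose and time, corin gave 358 higher genes (2.41% of 14884) and 542 lower ones (3.64%), by limma at the same thresholds. MS-275 is not corin without its LSD1-directed group, so no difference between them is assigned to that group. The comparison shares the corin arrays with that against vehicle, so the values are set side by side and no overlap is read from them. In the mitosis family, 65 of 79 were lower and 0 higher with corin than with MS-275 (median -1.82). PLK1 was -3.19 against MS-275 (adjusted p = 9e-10 from limma) beside -4.14 against vehicle and -0.95 for MS-275 over vehicle. TYMS was -3.48 beside -4.47 and -0.99, and CCNA2 -3.56 beside -4.66 and -1.10. Replication genes gave 22 lower and 0 higher of 36, and pigmentation genes 9 lower and 0 higher of 18. SOX10 was -2.75 against MS-275, -3.24 against vehicle and -0.49 for MS-275 over vehicle.

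In the stress response 7 of 28 were higher and 1 lower than with MS-275. DDIT3 was 3.39 against MS-275 (adjusted p = 1.9e-08 from limma), while MS-275 over vehicle was 0.39. SESN2 was 3.16, XIRP1, an actin-binding protein of muscle, 3.78 and ULBP1 4.05. Among cholesterol genes INSIG1 was 2.42 and HMGCS1 1.33, and 3 of 20 were higher. The HSP70 genes HSPA1A and HSPA1B were 1.44 and 1.62, and their changes for MS-275 over vehicle were -0.15 and -0.16.

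Several rises, picked after their values were seen, differed little between the inhibitors. SYN1 differed by 0.01 (95% interval -0.15 to 0.17), with changes over vehicle of 4.18 with corin and 4.17 with MS-275. For BMP6 the difference was 0.09 (-0.15 to 0.34), for DLX3 0.10 (-0.22 to 0.42), for PCDH17 0.14 (-0.04 to 0.32) and for KDR -0.13 (-0.31 to 0.05). A 2-fold difference lies outside each of these intervals. In the FGF, BMP and TGF-beta families corin exceeded MS-275 for 0 of 66 and 1 was lower, beside 2.41% and 3.64% of all genes. At such low shares a list of 66 would hold few calls, so these counts say little of the family. In the neuroendocrine family 4 of 65 were higher and 1 lower, a larger share higher and a smaller share lower than the 2.41% and 3.64% of all genes. Genes that were not called may still differ by less than 2-fold, as VGF did, at 0.75 (adjusted p = 1.6e-05 from limma).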

How the data were processed

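Affymetrix Human Gene 2.0 ST arrays measured total RNA of WM983B cells, with 3 arrays for each of vehicle, MS-275 and corin at 24 h. The authors extracted and normalized the signals by RMA with Partek Genomics Suite. The log2 values of 53617 probes per array were deposited by the authors, whose processing notes also name hg19. Scaling the arrays to each other makes them comparable but hides a change in total RNA per cell. A probe here stands for a transcript cluster. Of the probes, 16098 had 1 gene symbol and 37519 had none here. The named probes stand for 14884 genes, and the probe with the highest mean over the 9 arrays was used for the 779 genes with several. RefSeq promoters and microRNAs come from GRCh38.p14, a later build than the authors', so only letters were compared with the array, and 1 promoter per gene, the first listed, was searched.

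Groups were taken from the labels and compared with limma 3.58.1 in R 4.3.3 (lmFit and eBayes on all 9 arrays, no low-signal filter, prior degrees of freedom 5.07, 95% intervals on 11.07 degrees of freedom). A call required p under 0.05 after Benjamini-Hochberg adjustment, together with the 2-fold change that the series text gives. No depth applies to arrays, and their number limits the precision. On arrays simulated for the 14884 genes of corin against vehicle, 50% of 50 genes changed by 1 log2 unit were called, 100% at 1.5, 2 and 3, and 0 unchanged genes. A change of 1 log2 unit is the fold threshold itself, so the 50% is set by that threshold. The simulated noise was normal and independent for each gene and array, so these shares check the procedure and not the real arrays.

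Gene families were described by counts and medians, with no set test. The members and lists were chosen with earlier results of these data known, and wrongly matched symbols were removed after the data were seen. The families of SNAR RNAs and solute carriers were added then. Named genes are the 15 largest calls each way with arrays that do not overlap, leaving out unnamed and small RNA symbols, up to 4 called members each way of a family, the targeted enzymes, genes the study names for these arrays, and uncalled members that define a family. Some genes within the rule are left out of the text, and 42 called genes outside it were chosen after their values were seen. Same-numbered arrays did not deviate together from their group means (r from -0.06 to 0.02), so replicate numbers were not used as a block. The alternatives were a replicate block, only the 6 vehicle and corin arrays, the one-way model of the methods, an unadjusted p, folds of 1.5, of 2 SD or none, a filter at the median signal, trended and robust eBayes, averaging a gene over its probes, every named probe, centred or quantile-normalized arrays, and leaving out single arrays. A fit over every probe on the array was added later, with the data known. Python 3.11.15 and matplotlib 3.10.9 drew the figures.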

Additional observations from a re-analysis of the deposited data

Results flagged for a closer look

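The 37519 probes without a symbol lie outside the comparisons above. Over every probe on the array, with limma and p-values adjusted over all 53617, 1479 of these unnamed probes were higher with corin than with vehicle (3.94%) and 1025 were lower (2.73%) at a fold of at least 2. Their median log2 change was -0.008. They are listed because they carry a signal in data that no gene comparison used, and their part in the response was not tested.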

How the results depend on the processing

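The counts of 1081 genes higher and 1133 lower than vehicle were the same with the replicate block, with only the 6 vehicle and corin arrays and with an unadjusted p, since each 2-fold gene also passed the adjusted p. The replicate block gave 358 higher and 542 lower than MS-275, also as without it, and it changed no other call. All 2214 called genes were shared with that fit, 2213 with the one-way model of the methods and 2112 after quantile normalization. Leaving out 1 array at a time gave 1063 to 1128 higher and 1089 to 1163 lower than vehicle, and 349 to 375 higher and 528 to 571 lower than MS-275. The fold set the counts most. At a fold of 1.5, 2076 were higher and 2265 lower than vehicle, and 1096 and 1497 than MS-275. With no fold threshold these were 3477 and 3989, and 2592 and 3090. At 2 SD of the log2 changes, 3.02-fold against vehicle, 428 were higher and 425 lower than vehicle. Over every probe on the array the counts were 2637 and 2220 against vehicle and 1373 and 1025 against MS-275, with more probes tested. Among genes at or above the median signal, with fewer genes tested, 235 were higher than MS-275. Of all calls against vehicle, 48.8% were higher, 45.7% with centred arrays and 49.9% after quantile normalization. The median of 10 families with medians near 0 changed sign with scaling, and that of the other 37 with at least 4 members did not.

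No called gene named above changed direction in any setting. The sign changed for 8 named genes that were not called, CCND1, CRELD2, HDAC2, MC1R, MT1H, MT2A, MT4 and TXNIP, all with changes near 0. Apart from the fold settings, 12 genes gained or lost a call, each with a main log2 change close to 1. Genes under the median signal spread more between replicate arrays than the others. The median SD between vehicle arrays was 0.13 for genes under the median signal and 0.08 for the others, and between corin arrays 0.16 and 0.11.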
